A study of Mus musculus with 2 samples.

Results

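Malat1, Neat1, Tug1, Miat, Pvt1 and Mir17hg are long noncoding RNA genes that are transcribed in many tissues and have been assigned regulatory roles in the nucleus, at chromatin or as precursors of microRNAs. The 6 genes were taken by name and matched by gene ID, without its version, to the symbols of the GENCODE M21 annotation. All 6 were present in the tables, among 5694 genes of long noncoding annotation types and 43346 genes in all. The rule used names only and no threshold on a measured value. The values come from total RNA sequencing of whole mouse kidney at embryonic day 14.5 in strain B6NCrl, with 2 libraries labelled as biological replicates 1 and 2 of a single condition. Each library was made from the 2 kidneys of 1 embryo, which the labels also call a mixture of males and females, with 2 days between the collections. The labels state that a mirVana kit was used for extraction, that RNA above 200 nt was kept, that 10 ng went into each library with RNA spike-ins, and that the general protocol is a Smart-seq method, in which full-length complementary DNA is amplified. The design holds no second group, so differences between the libraries are given as values with no test.

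Malat1 and Neat1 are neighbouring nuclear RNAs. Malat1 collects in nuclear speckles, bodies rich in splicing factors, and the long form of Neat1 is the scaffold on which paraspeckles assemble. Both long RNAs are known to end at a site cut by RNase P, and their ends are protected by a triple helix of T-rich and A-rich stretches in place of a poly(A) tail. Tug1 has been linked to the Polycomb repressive complex PRC2 and, in the adult kidney, to mitochondrial metabolism in podocytes. Miat is known mainly from neurons and the retina and binds splicing factors through repeats of a branch-point-like sequence. Pvt1 lies downstream of the proto-oncogene Myc, and Mir17hg is the host of the miR-17-92 microRNA cluster, whose loss in nephron progenitors impairs kidney development in mice.

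The sequences that identify these RNAs were read from the GENCODE M21 transcripts (build GRCm38, all 5′ to 3′ on the transcribed strand). The first is the last 100 nt of Neat1-201, the long Neat1 transcript, at chr19:5824708-5824807 on the minus strand. Capitals mark a pair of T-rich stretches, searched as 3 or more T, then 1 or 2 C or G, then 4 or more T, and the A-rich stretch at the end. The A-rich stretch was searched as 4 or more A, then GC, then 4 or more A up to the last base. The other sequences are the last 60 nt of the short spliced transcript Neat1-202 (chr19:5842307-5842366, minus strand) and of the full-length transcript Malat1-201 (chr19:5795690-5795749, minus strand), where capitals mark the poly(A) signal AATAAA. They show which of the annotated ends carries which kind of element.
Neat1-201 end: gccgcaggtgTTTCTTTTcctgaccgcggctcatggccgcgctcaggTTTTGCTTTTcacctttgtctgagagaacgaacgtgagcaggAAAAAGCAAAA
Neat1-202 end: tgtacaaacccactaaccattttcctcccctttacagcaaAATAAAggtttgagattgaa
Malat1-201 end: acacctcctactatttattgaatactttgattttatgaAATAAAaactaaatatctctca

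Among 15483 long noncoding transcripts of 200 nt or more, 3.61% had a T-rich match in the last 100 nt on the transcribed strand and 0.400% had 2. Neat1-201 was the 1 transcript that had 2 T-rich matches together with the terminal A-rich match, and it had 0 copies of AATAAA in its last 60 nt. The patterns follow the letters at the end of Neat1-201 itself, so that it stood alone was close to set in advance and is no test. AATAAA was found in the last 60 nt of 31.8% of the transcripts, including Neat1-202 and Malat1-201. The annotated end of Malat1-201 had 0 T-rich matches in its last 100 nt. A match is a description of the letters and not evidence of a processed end.

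A stretch of Miat-201 shows the branch-point-like repeat. It covers chr5:112217310-112217459 (GRCm38, minus strand), transcript positions 4529 to 4678, and capitals mark the 4 copies of ACTAAC in it. A 150-nt small RNA model of the annotation, Gm27627 (chr5:112217318-112217467), overlaps the same stretch.
Miat-201 repeats: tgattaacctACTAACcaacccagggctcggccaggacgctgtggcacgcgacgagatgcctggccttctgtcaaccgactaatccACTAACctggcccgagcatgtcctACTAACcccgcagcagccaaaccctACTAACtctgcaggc
Miat-201 held 11 copies of ACTAAC in 8758 nt, or 1.26 per kb, between positions 4539 and 6449, and 0 copies of the reverse complement. The median over 151 long noncoding transcripts of 5000 nt or more was 0.148 per kb, and the 1 transcript at or above the density of Miat-201 was Miat-201 itself. Neat1-201 held 4 copies (0.193 per kb), Tug1-203 held 1, and Malat1-201 and Mir17hg-201 held 0.

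The mature microRNAs of the miR-17-92 cluster (RefSeq, build GRCm38.p6, chromosome 14, plus strand) are grouped below by their seed, bases 2 to 8, which is in capitals. Those of the related miR-106b-25 cluster, which lies within Mcm7 on chromosome 5, share 2 of the 4 seeds.
miR-17-5p: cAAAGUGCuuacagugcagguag
miR-20a-5p: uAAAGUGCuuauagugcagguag
miR-106b-5p: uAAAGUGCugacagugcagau
miR-93-5p: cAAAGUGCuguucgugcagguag
miR-18a-5p: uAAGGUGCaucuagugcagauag
miR-19a-3p: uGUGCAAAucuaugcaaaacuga
miR-19b-3p: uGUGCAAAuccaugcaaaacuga
miR-92a-3p: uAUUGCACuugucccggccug
miR-25-3p: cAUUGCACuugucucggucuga
The seed AAAGUGC was shared by 4 microRNAs, 2 in each cluster. The seed AUUGCAC was shared by miR-92a-3p and miR-25-3p, whereas GUGCAAA belonged to miR-19a-3p and miR-19b-3p and AAGGUGC to miR-18a-5p, all in the Mir17hg cluster.

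The libraries held 29718428 and 29204212 expected counts (replicates 1 and 2 throughout), and genes of long noncoding types took 3.44% and 4.65% of the counts on genes. Most of these long noncoding counts lay on Gm42418 and Gm26917, which are not members. Both are in the class by their annotation type, lincRNA, alone, and the source of their reads was not examined. Markers of nephron progenitors (8 of 8 genes), ureteric epithelium (9 of 9), stroma (7 of 7), endothelium (8 of 8) and macrophages (8 of 8) were all at 1 TPM or more in both libraries, whereas 3 of 10 markers of neurons and Schwann cells were. Of all 21474 protein-coding genes, 12669 were, a background for each list of genes below. TPM is a measure of transcript abundance per length and is used for all levels. In replicate 2 long genes were lower: the median log2 difference of TPM + 1, replicate 2 minus replicate 1, was 0.16 for 1604 genes with a longest transcript of at most 1000 nt and -0.49 for 999 genes of 6000 to 8000 nt. Over all 14329 genes at 1 TPM or more the median was -0.25. Xist, expressed from the inactive X chromosome of female cells, was at 0.01 TPM in replicate 1 and 67.2 TPM in replicate 2, which does not match a label of mixed sexes for replicate 1. In whole tissue, fewer cells of a type and less RNA per cell cannot be told apart.

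The 6 genes spanned levels from 0.215 to 4320 TPM (mean of 2 libraries). In falling order they were Malat1, Tug1, Mir17hg, Pvt1, Neat1 and Miat, and no gene's pair of values overlapped that of the next. 5 of the 6 reached 1 TPM in both libraries, where 12.6% of all long noncoding genes and 33.1% of all genes did. Only Miat stayed below. The smallest step was that from Mir17hg to Pvt1, 1.23-fold in replicate 1 and 1.64-fold in replicate 2. The order partly depends on the length behind the TPM. With all counts of a gene divided by the effective length of its longest transcript, an alternative chosen after seeing the data, the ratio of Pvt1 to Neat1 was 0.733 in replicate 1 and 1.15 in replicate 2, so these genes had no fixed order.

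**Figure D1:**
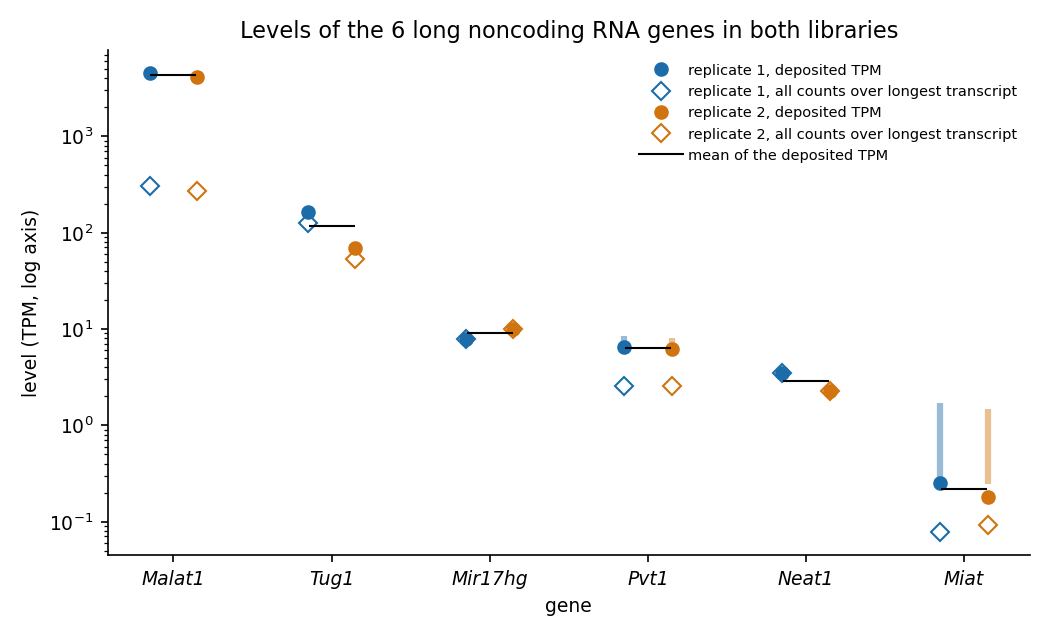
Level (TPM, log axis) of each of the 6 genes in both libraries. Filled circles are the deposited TPM, thin shaded bars their deposited credibility intervals, black lines the mean of the 2 libraries, and open diamonds the level with all counts over the longest transcript. Malat1 is at 4512 and 4129 on the first scale and 307 and 270 on the second, whereas Neat1 and Mir17hg do not move.

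Malat1 (chr19:5795690-5802672, minus strand, type lincRNA) was number 3 of the long noncoding genes and number 15 of all genes by mean TPM. It was at 4512 TPM in replicate 1 and 4129 TPM in replicate 2 (4320 ± 270, SD, n = 2), from 41283 and 41887 expected counts. The libraries were close: the log2 difference was -0.13, or 0.13 relative to the median of genes, and its sign depended on the unit (0.10 in FPKM, 0.13 in TMM-scaled CPM, counts scaled to library size with no length). The deposited credibility intervals, 4336 to 4430 and 3985 to 4070, did not overlap each other. Each interval lay below the TPM of its own library, which is a maximum likelihood estimate, and held the posterior mean (4383 and 4028).

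Nearly all of the Malat1 TPM came from a short model at the 5′ end. Malat1-203 (chr19:5801916-5802671) is a 485-nt transcript of 2 exons with a 271-nt intron, all within the first 757 nt, or 10.8%, of the gene. It was assigned 33549 and 35538 counts, against 7734 and 6349 for the 6983-nt Malat1-201. Its share of the gene's TPM was 98.7% and 99.01%, and that of Malat1-201 was 1.28% and 0.99%. By counts rather than TPM, Malat1-203 held 81.3% and 84.8%. Malat1-203 carried 77.4 and 99.8 times as many reads per kb of effective length as Malat1-201. Of the other listed transcripts, Malat1-202 had 1.24 and 0 counts, and Malat1-204 had 0 in both libraries.

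As a result the effective length behind the TPM of Malat1 was 469 and 450 nt, 6.81% and 6.54% of that of Malat1-201. With all its counts over the full-length transcript, Malat1 was at 307 and 270 TPM (289 ± 26.3, SD, n = 2), 14.7- and 15.3-fold below the deposited values. An effective length under 10% of the longest transcript in both libraries was rare: 4 of 9702 detected genes with several transcripts (0.0412%) had one. The others, named after their values were seen, were Rps15a, Rasgrp2 and D1Ertd622e. On this scale Malat1 was 2.44- and 5.13-fold above Tug1, in place of 27.6- and 59.7-fold.

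The same 5′ segment also fed a gene on the other strand. Gm37376, a single-exon model with no assigned function (type TEC, chr19:5801941-5802393, plus strand, 453 nt), lies wholly inside Malat1-201 and shares 182 nt with the exons of Malat1-203. It was assigned 14536 and 15555 counts, or 2104 and 1951 TPM. Malat1-203 and Gm37376 together took 48084 and 51093 counts, 86.1% and 88.9% of those of both genes. No source used here says whether strand was used in counting, so reads of Malat1 and of Gm37376 cannot be told apart. With the counts of both genes over Malat1-201, the level would be 416 and 371 TPM. The small RNA model Gm27694 inside Malat1 was at 0. The shared stretch is printed to show how small the segment is, with its 156 nt of exon 1 (chr19:5802238-5802393) in lower case and its 26 nt of exon 2 (chr19:5801941-5801966) in capitals, read from the minus strand.
Malat1-203 within Gm37376: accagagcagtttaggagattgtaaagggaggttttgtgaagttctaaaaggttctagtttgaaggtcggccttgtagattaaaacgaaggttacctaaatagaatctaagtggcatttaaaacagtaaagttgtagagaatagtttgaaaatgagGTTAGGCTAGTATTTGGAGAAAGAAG

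**Figure D2:**
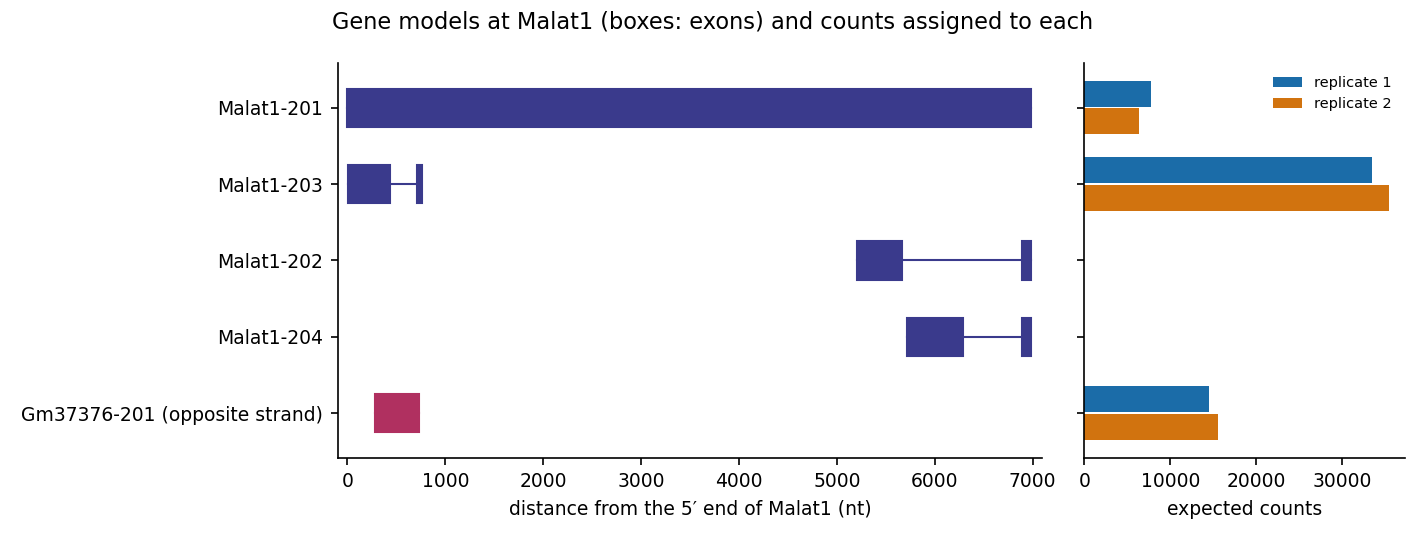
Gene models at Malat1 by distance from its 5′ end in nt (left, boxes are exons and lines introns) and the expected counts assigned to each in both libraries (right). Malat1-203 and the opposite-strand Gm37376 lie within the first 757 nt and hold 86.1% and 88.9% of the counts of the 2 genes.

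Genes of nuclear speckles, where Malat1 collects, were all at 5 TPM or more (18 of 18, median of the means 205 TPM, against 4.20 for all protein-coding genes). Of 21474 protein-coding genes, 9846 were at 5 TPM or more. The highest were the splicing factors Srsf3 (801 and 868 TPM) and Srsf2 (827 and 744), the speckle scaffold Srrm2 (369 and 352) and Srsf7 (355 in both), and the lowest were Srsf4 (92.6 and 61.7) and Pnn (73.2 and 55.9). None was called apart between the libraries, which means at least 2-fold on log2(TPM + 1) with 5 TPM or more in the higher library. Of all 11480 genes at that level, 4.56% were called lower in replicate 2 and 1% higher. Of the genes for RNase P and RNase Z, the enzymes that cut the tRNA-like RNA at the end of Malat1, 13 of 13 were at 1 TPM or more, with a median of 48.8 TPM. Rpph1, the RNA of RNase P, was at 71.5 and 217 TPM and was the 1 gene of this list called higher in replicate 2. Its protein subunits Rpp21 (94.6 and 122), Pop5 (91.7 and 90.6) and Pop4 (83.6 and 81.2) were the next highest, and Pop1 (10.5 and 10.2) and Rpp25 (4.97 and 3.92) the lowest. Elac2, which encodes RNase Z, was at 30.1 and 14.7 TPM.

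Neat1 (chr19:5824708-5845478, minus strand, lincRNA) lies 22036 nt from Malat1 but was at a far lower level. It was at 3.47 TPM in replicate 1 and 2.24 TPM in replicate 2 (2.86 ± 0.870, SD, n = 2), rank 371 among the long noncoding genes. Because the gene is long, this low level rested on 1400 and 1044 counts, rank 27 by counts. The credibility intervals, 3.25 to 3.72 and 2.10 to 2.48, did not overlap. The log2 difference was -0.46, or -0.21 relative to the median of genes, and below that median under every scaling listed among the alternatives.

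All Neat1 counts were assigned to the 20771-nt transcript Neat1-201. Neat1-202 (3004 nt, with a 166-nt intron) and Neat1-203 (1030 nt) had 0 counts in both libraries. The shares from posterior means were 96.9% and 95.6% for Neat1-201. The assignment is an estimate, since every position of Neat1-202 outside its exon junction also lies in Neat1-201, and an unspliced short form is not among the 3 transcripts of the table. The values therefore do not separate a short form that ends early from the long form. At the right of Neat1, Frmd8os on the other strand was listed at 0. Of the 3 small RNA models inside Neat1, Gm27533 and Gm27505 were at 0 and Gm28006 had 0 and 0.89 counts.

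RNAs of the genes for paraspeckle proteins were all present: 20 of 20 genes were at 5 TPM or more, with a median of 77.4 TPM. Protein was not measured. The highest were Hnrnpk (1511 and 1007 TPM), Hnrnpa1 (890 and 939), Ewsr1 (398 and 389) and Matr3 (402 and 270). Nono (359 and 303), Sfpq (120 and 136) and Pspc1 (42.7 and 43.2), the core proteins that bind Neat1, lay between these and the lowest, Rbm12 (27.3 and 11.7) and Taf15 (16.0 and 20.7). Rbm12, an RNA-binding protein gene, was the 1 gene of the list called lower in replicate 2. Every gene of the list was thus above Neat1 in both libraries.

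Tug1 (chr11:3639785-3649673, minus strand, type antisense) was the member that differed most between the libraries. It was at 163 TPM in replicate 1 and 69.1 TPM in replicate 2 (116 ± 66.7, SD, n = 2), from 16218 and 7836 counts, and ranked 13th among long noncoding genes. Replicate 2 was 2.36-fold lower, a log2 difference of -1.23, and -0.98 relative to the median of genes. Tug1 was the 1 member of 6 called apart, where 5.56% of the 11480 genes with 5 TPM or more in the higher library were called in either direction and 4.56% lower in replicate 2. Its credibility intervals, 156 to 162 and 64.5 to 72.8, did not overlap, and the first lay below the TPM of its own library. Intervals did not overlap for 4 of the 6 members (Malat1, Neat1, Tug1 and Mir17hg), nor for 64.7% of the same 11480 genes and 56% of genes at 1 TPM or more in both libraries, a share near that of the members.

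The call lay at its threshold: the log2 difference was -0.996 in FPKM and -0.94 in TMM-scaled CPM, just short of 2-fold. Relative to the median of genes it stayed between -0.98 and -0.94 under each scaling. Among 151 genes within 2-fold of the level of Tug1 and with a longest transcript of 5000 to 9000 nt, the median difference was -0.38, the lowest -1.41, and 2 genes were at or below Tug1. Of these 151 genes 5.30% were called lower. Of 7 stromal markers, 2 were called lower in replicate 2 (Meis1, 86.6 and 41.3 TPM, and Pdgfra, 41.4 and 16.2) and none higher, and Foxd1 (12.4 and 18.3) and Tcf21 (259 and 289) had the larger value in replicate 2. The summed level of the 7 genes was 1200 and 926 TPM and their median log2 difference -0.68. For 8 macrophage markers the sums were 128 and 98.0 TPM and the median difference -0.65, with 1 gene called lower. The other kidney lists lay nearer to the median of all detected genes, -0.25. Their median differences were -0.30 for nephron progenitor, -0.20 for ureteric epithelium and -0.21 for endothelial markers, the last with 1 gene called lower. The part of length or cell makeup in the Tug1 value was not tested.

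The estimated levels of the Tug1 transcripts did not move alike. Tug1-203 (5112 nt) led in both libraries with 65.5% and 73.2% of the gene, or 107 and 50.6 TPM. Tug1-201 (6709 nt) held 12.8% and 19.6%, or 20.9 and 13.6 TPM. Tug1-202 (4720 nt) held 20.2% in replicate 1, from 2971 counts, and was listed at 0 in replicate 2. It shares exons of 3386 and 752 nt with Tug1-203. A further exon is 522 nt long in Tug1-202 and 974 nt in Tug1-203, and Tug1-202 has a 60-nt exon that Tug1-203 lacks. The split of reads between them is thus an estimate, and a real change of transcript use was not tested. The sum of the other transcripts was small: Tug1-205 held 1.54% and 3.76%, and Tug1-204 held 0% and 3.41%.

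At its 5′ end Tug1 overlaps Morc2a, a chromatin regulator on the other strand, which was at 20.5 and 15.1 TPM. Of the 4 small RNA models inside Tug1, Gm27640 was at 69.4 and 75.8 TPM from only 65.0 and 82.0 counts and Gm27624 at 17.6 and 8.34 TPM. The other models, Gm27517 and Gm27937, were at 0. Among the neighbours, Smtn, a smooth muscle protein, was at 55.9 and 38.1 TPM and Osbp2 at 0.62 and 0.31. PRC2 genes were at 1 TPM or more in 11 of 11 cases, with a median of 26.5 TPM and none called apart. The histone-binding subunits Rbbp7 (411 and 340 TPM) and Rbbp4 (338 and 308) led, followed by the methyltransferase Ezh2 (68.6 and 82.1) and Mtf2 (70.6 and 56.2). The accessory subunits Phf19 (20.1 and 15.2) and Phf1 (4.09 and 4.17) were lowest.

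**Figure D3:**
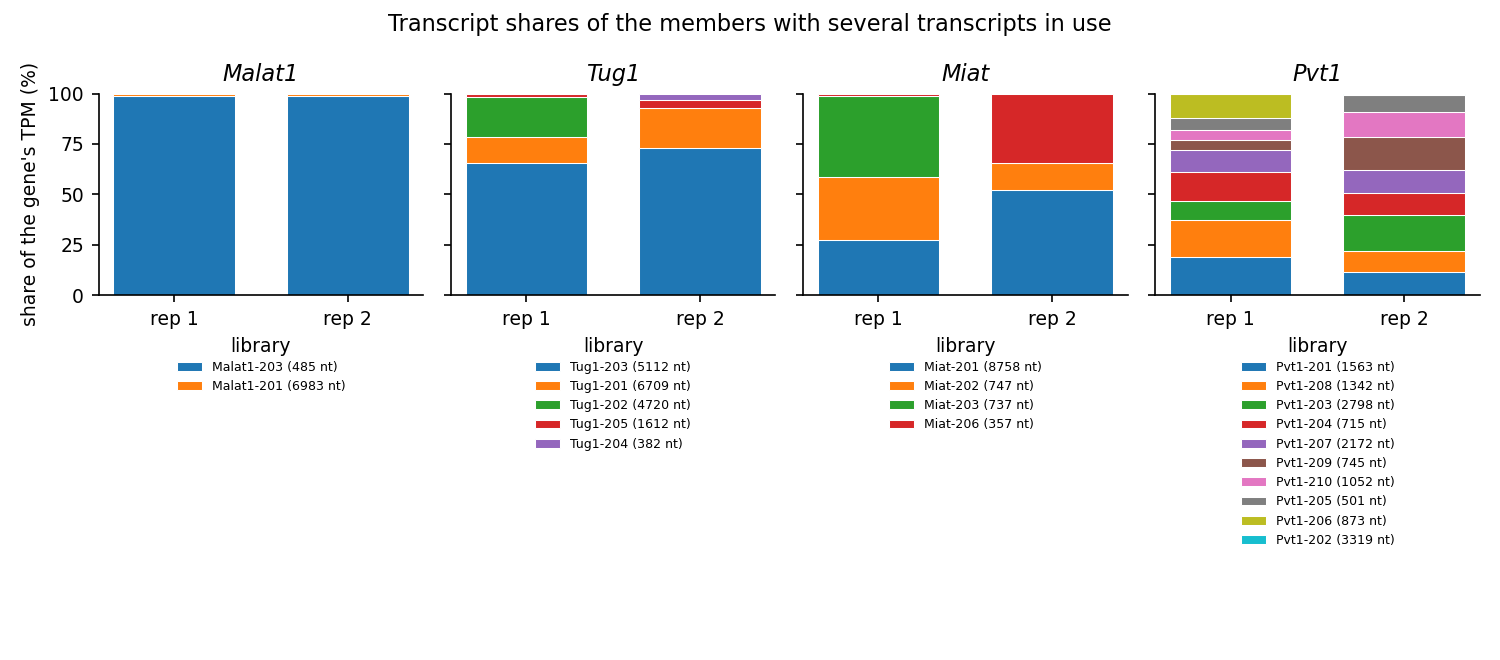
Share of each gene's TPM (%, stacked) taken by its transcripts in both libraries, for the 4 members with more than 1 transcript above 0%. Malat1 is almost entirely Malat1-203, Tug1-202 holds 20.2% and 0%, and Miat and Pvt1 have different leading transcripts in the libraries.

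Miat (chr5:112213228-112229395, minus strand, lincRNA) was the lowest member. It was at 0.25 TPM in replicate 1 and 0.18 TPM in replicate 2 (0.215 ± 0.0495, SD, n = 2), from 14 and 19 counts. The exact 95% Poisson intervals of these counts were 7.65 to 23.5 and 11.4 to 29.7, and they overlap. Such intervals cover counting error only. It ranked 1775th among long noncoding genes. The posterior means were higher, 0.94 and 0.80 TPM, and their intervals (0.265 to 1.72 and 0.246 to 1.48) overlapped and reached above 1 TPM.

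With so few counts the transcripts of Miat cannot be ranked at this depth. Miat-203 led in replicate 1 (40.2%, from 1.27 counts) and had 0 in replicate 2, where Miat-201 led (52.0%, against 27.3%). Miat-202 held 31.4% and 13.3% and Miat-206 held 1.04% and 34.7%. By counts, the repeat-bearing Miat-201 held 83.6% and 96.3%. The opposite-strand Gm26953 and the 4 small RNA models inside Miat were at 0. The neighbour Cryba4, a lens protein gene, was at 0.65 and 1.03 TPM, and Mn1, a transcriptional regulator, at 5.46 and 3.81.

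Of 3 matched factors reported to bind Miat, Srsf1 (330 and 196 TPM) and the branch-point protein Sf1 (144 and 95.1) were well above 1 TPM. Celf3, a neuronal splicing regulator, was at 0.12 in both libraries. Qki was not matched. Neuronal and Schwann cell genes, from tissues in which Miat is better known, were low as well: 3 of 10 were at 1 TPM or more in both libraries, with Elavl4 (13.3 and 10.1) and Stmn2 (4.65 and 5.48) highest, and Tubb3 was at 1.54 and 0.83. Sox10 (0.10 and 0.12) and Dbh (0.04 and 0) were at or near 0. The summed level of the 10 genes was 23.2 and 19.3 TPM.

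Pvt1 (chr15:62037986-62378096, plus strand, lincRNA) covers 340111 nt but its longest transcript has 3319 nt. It was at 6.44 TPM in replicate 1 and 6.11 TPM in replicate 2 (6.28 ± 0.233, SD, n = 2), from 160 and 187 counts, rank 192. The credibility intervals overlapped (5.59 to 8.37 and 5.49 to 8.002) and the log2 difference was -0.07, or 0.19 relative to the median of genes. Its sign turned in FPKM (0.13) and TMM-scaled CPM (0.29).

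No single transcript dominated Pvt1 by share of TPM. Of 10 transcripts, 9 held 5% or more in either library and none reached 20%. Pvt1-201 led in replicate 1 with 18.8%, against 11.2% in replicate 2, and Pvt1-203 led in replicate 2 with 17.8%, against 9.76%. Pvt1-208 held 18.4% and 10.8%, Pvt1-204 14.3% and 10.9%, Pvt1-207 10.6% and 11.3%, and Pvt1-209 5.20% and 16.2%. Pvt1-210 held 4.99% and 12.7% and Pvt1-205 held 5.94% and 8.44%. Pvt1-206 held 12.1% from 11.7 counts in replicate 1 and 0% in replicate 2. The largest count behind any of these shares was 66.2, for Pvt1-203 in replicate 2. By counts rather than TPM, Pvt1-203 held 20.7% and 35.4% and Pvt1-201 held 21.6% and 12.1%.

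Myc, on the same strand 47612 nt upstream of Pvt1, was at 90.7 and 85.1 TPM, above Pvt1 in both libraries. The nearest named gene on the other side, Gsdmc, lies 1397872 nt away and was at 0.10 and 0.08. Inside Pvt1, the 4 small RNA models (Gm27913, Gm27782, Gm27718 and Gm27957) had 3.19 and 5 counts in sum, and the pseudogene H2afy3 on the other strand was at 0.15 and 0.53 TPM. The genes of the Myc network were all at 1 TPM or more (12 of 12, median 24.7 TPM). Myc was the highest, followed by Mycn (81.6 and 66.3), a Myc paralogue, their partner Max (23.6 and 48.5) and Mlx (30.9 and 33.9). The repressors Mxd1 (5.85 and 3.32) and Mnt (5.18 and 3.66) were lowest. The 1 gene called higher in replicate 2 was Max and the 1 called lower was Mlxip (20.7 and 9.75).

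Mir17hg (chr14:115042879-115046727, plus strand, lincRNA) has 1 transcript of 2 exons and 3536 nt. It was at 7.92 TPM in replicate 1 and 10.1 TPM in replicate 2 (8.99 ± 1.51, SD, n = 2), from 531 and 778 counts, rank 153. It was the 1 member higher in replicate 2 on the TPM scale. The log2 difference was 0.31, or 0.56 relative to the median of genes, and the credibility intervals (7.06 to 8.37 and 9.13 to 10.5) did not overlap. It was not called apart.

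The 6 hairpins whose mature microRNAs are printed above lie within exon sequence of Mir17hg and start between 792 and 1548 nt from its 5′ end. They were at 0 counts in both libraries. These zeros carry no information on the mature microRNAs: RNA was kept above 200 nt, and 5 of the 6 hairpins are under 100 nt and have an effective length of 0. Beside Mir17hg, the proteoglycan gene Gpc5 (45488 nt away) was at 5.98 and 2.75 TPM, and Tpm3-rs7 on the other side at 4.80 and 4.18. Mcm7, the replication helicase gene that hosts the miR-106b-25 cluster, was at 189 and 130 TPM.

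Of 13 genes that process microRNAs or carry them, 12 were at 1 TPM or more in both libraries, with a median of 11.03 TPM. Prkra (70.3 and 70.6) and Tarbp2 (70.6 and 59.9), partners of Dicer, were highest, followed by the exporter Xpo5 (47.0 and 22.5), called lower in replicate 2, and the nuclease Drosha (42.2 and 25.7). The Argonautes Ago1 (6.64 and 5.97) and Ago4 (1.46 and 0.98) were lowest. Genes reported as targets of the cluster were at 1 TPM or more in 12 of 12 matched cases, with a median of 12.9 TPM, beside 12669 of 21474 protein-coding genes. The cell cycle inhibitor Cdkn1a (41.5 and 29.6) was highest, followed by the pro-apoptotic gene Bcl2l11 (24.7 and 14.9), the receptor Tgfbr2 (23.4 and 11) and Hipk3 (17.1 and 10.2). Ccn2 (4 and 3.44) and the phosphatase Phlpp1 (3.74 and 3.34) were lowest. The 2 target genes called lower in replicate 2 were Tgfbr2 and Thbs1 (18.8 and 7.70). The median log2 difference of the target genes was -0.32, beside -0.25 for all detected genes.

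**Figure D4:**
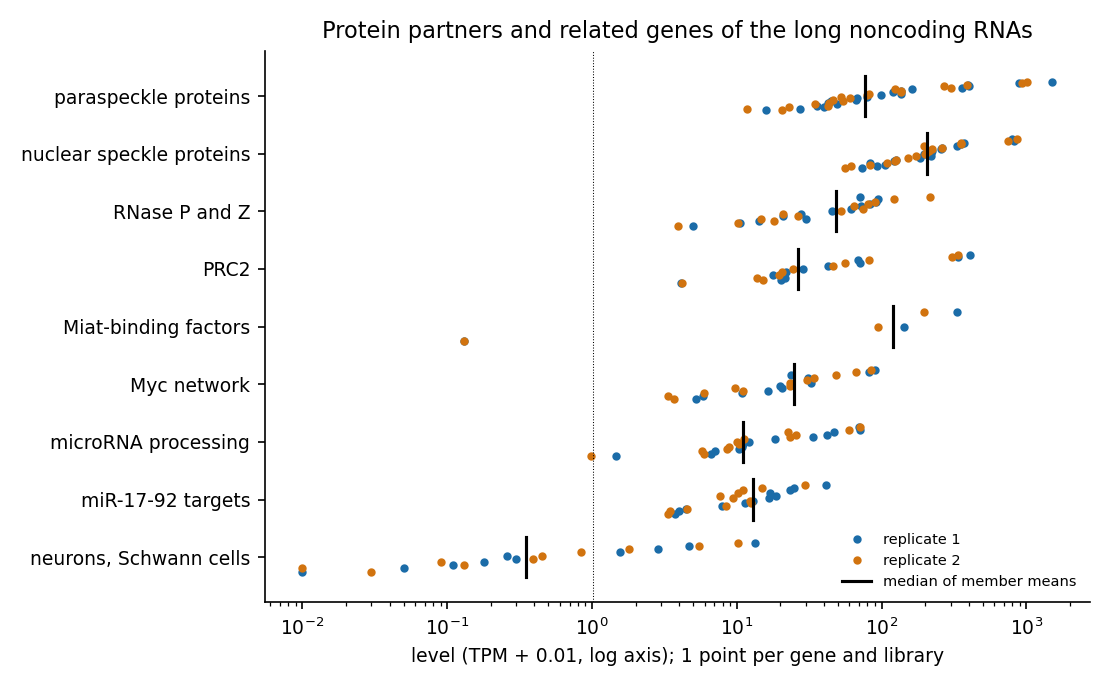
Level (TPM + 0.01, log axis) of genes related to the 6 RNAs, 1 point per gene and library, with the median of each list as a black line and a dotted line at 1 TPM. Every speckle, paraspeckle, PRC2 and Myc network gene lies above 1 TPM, whereas most neuronal genes and the Miat-binding Celf3 lie below.

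The 6 genes took 6.10% (exact binomial 95% interval 6.06 to 6.15) of the counts on long noncoding genes in replicate 1 and 4.01% (3.97 to 4.04) in replicate 2 (5.05% ± 1.48, SD, n = 2). The intervals cover counting error alone, treat expected counts of amplified libraries as independent, and are far narrower than the spread between the libraries. Malat1 gave 69.3% and 80.9% of this share. Of the 976572 and 1292068 counts on long noncoding genes, Gm42418 took 452036 and 677230 and Gm26917 took 273216 and 328343. The size of the members' share therefore depends largely on these genes. Between the libraries the counts of Tug1 (16218 and 7836), a member, and of Xist (5.04 and 26439), in the same class, also differed. The part of each gene in the fall of the share in replicate 2 was not tested. On the TPM scale the members' share was 15.4% and 12.0%. By mean TPM the 10 highest long noncoding genes included Malat1 and no other member: Gm42418 (13374 and 17362 TPM) and Gm26917 (4336 and 4846) preceded it, and Gas5 (549 and 752), H19 (443 and 504), Cct6a (435 and 322), Gm10076 (298 and 346), Gm12940 (231 and 298), 1810058I24Rik (133 and 163) and 2410006H16Rik (114 and 139) followed it. The class rests on annotation type alone. Cct6a is in it as a processed_transcript and is not shown to be noncoding.

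Of a list of other long noncoding and structural RNAs with known functions, 22 of 31 matched genes were at 1 TPM or more in both libraries. Among them Gas5, the small nuclear RNA Rn7sk (371 and 650 TPM) and the imprinted H19 were highest, followed by Rpph1, and Hottip and Mir124a-1hg were listed at 0. Of this list 4 genes were called higher and 2 lower in replicate 2. Over the 11480 genes with 5 TPM or more in the higher library, 1% were called higher and 4.56% lower. Those called higher were Xist, whose difference is given above, Tsix (0.12 and 16.3 TPM), Rpph1 and Rmrp (40.2 and 114). Those called lower were Firre (17.5 and 7.50) and 2900097C17Rik. Like Tug1, 2900097C17Rik was lower in replicate 2, at 37.9 and 9.54 TPM. Over the 718 long noncoding genes at 1 TPM or more the median log2 difference was -0.05, and 4.69% of the 256 with 5 TPM or more in the higher library were called apart, 2.73% as lower in replicate 2.

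**Figure D5:**
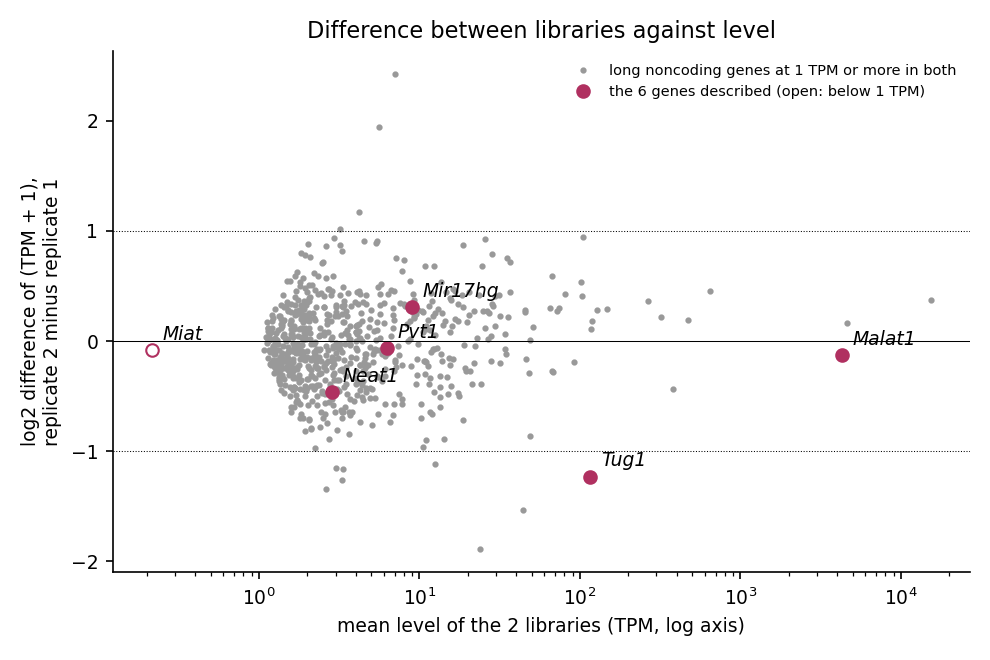
Difference between libraries (log2 of TPM + 1, replicate 2 minus replicate 1) against mean level (TPM, log axis) for long noncoding genes at 1 TPM or more in both libraries (grey) and the 6 described genes (red, open below 1 TPM). Dotted lines mark a 2-fold difference. Tug1, at -1.23, is the 1 described gene outside them.

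Likeness in level and difference was measured as the Euclidean distance in mean log2(TPM + 1) and in its difference between the libraries, over 2 libraries and 717 candidates for each member. The long noncoding genes nearest to Neat1 were Gm12359 (3.33 and 2.24 TPM) and A330040F15Rik (3.56 and 2.16), and those nearest to Pvt1 were Tbx3os1 (6.67 and 6.12) and Gm16740 (6.26 and 5.78). Mir17hg had 1700086O06Rik (7.91 and 9.89) and Gm38287 (7.92 and 9.79) beside it. Malat1 and Tug1 stood more alone. The nearest to Malat1 were Gm26917, at a distance of 0.30, and Gm42418, at 1.89, and those nearest to Tug1 were Tmem134 (98.3 and 86.2 TPM), at 1.06, and Gm11175 (74.3 and 60.9), at 1.15. Tmem134 too is counted as long noncoding only by its annotation type, processed_transcript.

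RefSeq promoter windows, 250 nt before to 50 nt after a gene's start (GRCm38.p6), were matched for 4 members: Malat1, Tug1, Miat and Mir17hg. The RefSeq starts of Tug1, Miat and Mir17hg lie 859, 447 and 1511 nt inside the gene models of GENCODE, so a match in these windows describes the RefSeq start only. The window of Mir17hg overlaps its hairpins and was not searched. On both strands the E-box CACGTG, the CCAAT box and the TATA box TATAAA had 0 matches in the windows of Malat1, Tug1 and Miat, and GGGCGG had 1 match each in Tug1 and Miat. Over 32851 promoters of the same length, 7.15% held the E-box, 37.4% the CCAAT box, 13.6% the TATA box and 35.7% GGGCGG. The G and C content of the windows was 47% for Malat1, 71.3% for Tug1 and 64.3% for Miat.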

How the data were processed

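The 2 libraries were quantified by the authors against mm10 with annotation M4, per the deposited notes. The aligner, quantifier and strand setting were not given in the sources used here. Deposited expected counts are estimated reads per gene or transcript, not whole because shared reads are divided. The deposited TPM values add up to the same total in each library and come as maximum likelihood and posterior mean estimates, and the deposited FPKM values are scaled to length and depth. The deposited credibility bounds are a signal on the TPM scale, with no level named. Isoform percent, as deposited, is a transcript's share of its gene's TPM. Effective lengths equal length minus 99 nt.

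From these tables means, SDs (n = 2), log2 differences with a pseudocount of 1 TPM, ranks, shares and intervals were computed (Python 3.11.15, pandas 2.3.3, scipy 1.17.1). Detection meant 1 TPM or more in both libraries. TMM-scaled CPM used factors from edgeR 4.0.16 (R 4.3.3), for which gene counts were rounded. No test across genes was run, as both libraries belong to 1 group. The rule that calls genes apart was tested on simulated data with changes well above 2-fold and no trend with length. That test does not cover calls near the threshold, such as that of Tug1. Total expected counts were 29718428 and 29204212, of which 28429080 and 27758872 fell on genes. Symbols, types and coordinates are those of GENCODE M21 on GRCm38, the assembly of mm10, and 42462 of 43346 gene IDs matched. Long noncoding types exclude TEC.

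Named were the 6 members, their transcripts at 5% or more in either library, from each functional list up to 4 highest and 2 lowest genes (short lists in full), overlapping and neighbouring genes, the 2 nearest long noncoding genes in pattern and the 10 highest long noncoding genes. A few genes that this rule would name are not reported here. Other names were chosen after their values were seen. The kidney cell type lists are given as counts, with values only where they stand beside a member's result. The members and lists were chosen with earlier results of these data known. Alternatives were other units and scalings, pseudocounts, detection floors, call rules and each library alone, and, chosen after seeing the data, levels over 1 length per gene and Malat1 with Gm37376.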

Additional observations from a re-analysis of the deposited data

How the results depend on the processing

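The 2 libraries limit every statement to these samples. No paired analysis was possible because all samples belong to 1 group. Tug1 kept its direction but missed the 2-fold call in FPKM (-0.996) and TMM-scaled CPM (-0.94). With credibility intervals that do not overlap as the rule, 4 members were apart in place of 1. By that rule 64.7% of genes with 5 TPM or more in the higher library were apart too. So were 56% of genes at 1 TPM or more in both libraries, a share near that of the members. In FPKM the mean levels were 3073 for Malat1, 0.155 for Miat, 4.47 for Pvt1 and 6.48 for Mir17hg. As TMM-scaled CPM, which ignores length, they were 1482 for Malat1, 43.3 for Neat1, 423 for Tug1, 0.591 for Miat and 23.5 for Mir17hg. Rescaling TPM without mitochondrial, haemoglobin, spike-in and number-only features gave 5069 for Malat1, 7.36 for Pvt1 and 10.5 for Mir17hg, and posterior means gave 0.870 for Miat and 6.81 for Pvt1. Over the longest transcript, Malat1 was at 289, or 393 with the counts of Gm37376, Miat at 0.0855 and Pvt1 at 2.56. The mean share of Malat1-203 was 83.1% by counts, that of Neat1-201 was 96.2% by posterior means, and that of Miat-201 was 6.39% by posterior means and 90.0% by counts, against 39.7%. In TPM the members' share of long noncoding genes was 13.7%. With a floor of 5 TPM, 1 of 10 neuronal and 4 of 8 macrophage genes were detected. The median difference of all genes was -0.25 in TPM, -0.05 in FPKM and 0.01 in TMM-scaled CPM. Tug1 was at 69.1 TPM without replicate 1 and 163 TPM without replicate 2, against a mean of 116. Counts of 14 and 19 limit Miat, and at most 66.2 limit the transcripts of Pvt1. The causes of these shifts were not tested.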
